A study of Homo sapiens with 8 samples.

Results

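The vault RNA genes VTRNA1-1, VTRNA1-2, VTRNA1-3 and VTRNA2-1 and the 7SL RNA genes RN7SL1 and RN7SL2 were looked up in every deposited list of POLR3A-enriched regions. POLR3A is the largest subunit of RNA polymerase III. A gene was counted as listed in a library when any part of a region lay within 500 bp of it, and all 6 genes had hg19 positions to test. They accounted for 7 of the 1222 regions of the 4 lists. The ChIP-seq was done in MDA-MB-231, a human breast cancer line, and in MDA-LM2, a highly metastatic line derived from it. Each line had 2 POLR3A ChIP libraries, called library 1 and library 2 here after their replicate numbers, from cells grown in the same medium and fixed in 1% formaldehyde, with no other treatment named. No label says whether the replicates were separate cultures, so the spread between them may be technical. The lines differ by their derivation as a whole and not by 1 altered gene, and each is a single line. The series also has 4 input libraries, which were not analysed here. The lists held 646 and 18 regions in MDA-MB-231 libraries 1 and 2 and 86 and 472 in MDA-LM2 libraries 1 and 2. Depth is unknown, so neither list lengths nor heights can be compared between libraries as amounts of polymerase.

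RNA polymerase III makes short untranslated RNAs. At most of its genes, vault RNA genes among them, transcription factor IIIC first binds promoter elements called the A box and B box inside the transcribed sequence, then places factor IIIB, which recruits the polymerase over a gene body not much longer than a nucleosome. Vault RNAs are named after the vault, a large ribonucleoprotein particle of the cytoplasm in which part of them resides. The 7SL RNA is the scaffold of the signal recognition particle, which directs ribosomes making secreted and membrane proteins to the endoplasmic reticulum, and its genes need sequence upstream of the start as well as inside the gene. Both RNAs are made in nearly all cell types.

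Of the vault RNA genes, VTRNA1-1 was the only member listed in all 4 libraries. VTRNA1-2 was listed in MDA-MB-231 library 1 and MDA-LM2 library 2, and VTRNA1-3 and VTRNA2-1 were listed in none. Of the 7SL genes, RN7SL1 was listed in MDA-LM2 library 2 alone and RN7SL2 in none. VTRNA1-1 and VTRNA1-2 were thus listed in at least 1 library of each line, RN7SL1 in MDA-LM2 only, and the other 3 in neither line. No member was listed in both libraries of one line and in neither of the other. When overlapping regions of the 4 lists were merged into 788, 36.8% were listed in at least 1 library of each line, 1.27% were listed in all 4 libraries as VTRNA1-1 was, 27.9% had the pattern of VTRNA1-2, and 19.5% were listed in MDA-LM2 library 2 alone as RN7SL1 was. Merged regions listed in the pair of MDA-LM2 libraries and in no list of MDA-MB-231 made up 0.381%, and those with the opposite pattern 0%. A merged region is by construction in at least 1 list, which a gene need not be, so these shares describe the lists and are no expectation for a gene.

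**Figure D1:**
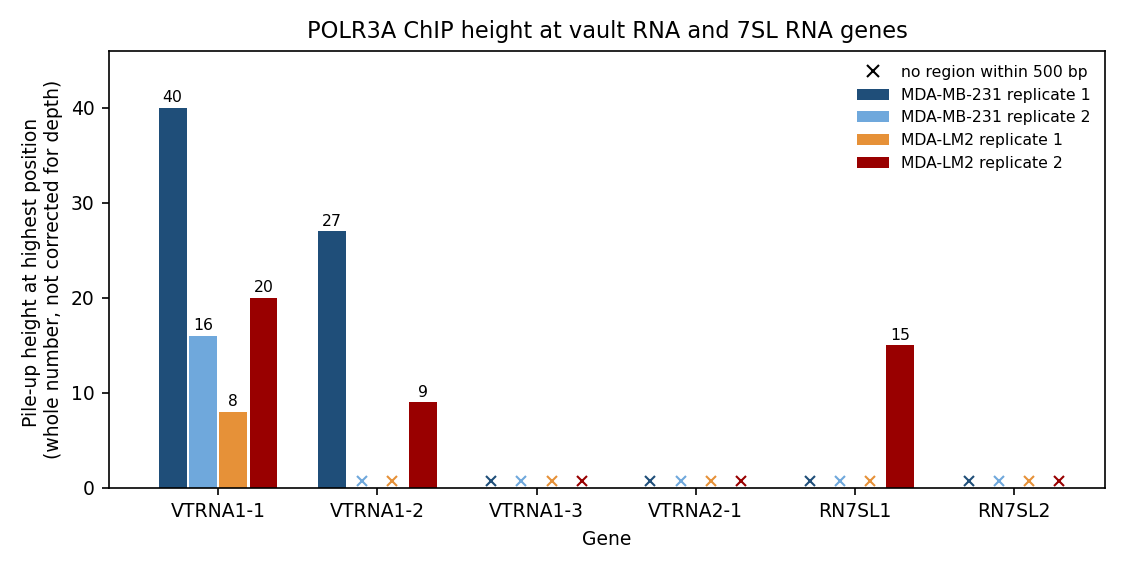
Pile-up height at the highest position of the region listed at each gene (y axis, whole numbers as deposited, not corrected for depth), for the 6 genes (x axis) in the 4 libraries (colours). Crosses mark libraries with no region within 500 bp, and VTRNA1-1 has a bar in each library, from 8 to 40.

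VTRNA1-1 lies on chromosome 5 from 140090859 to 140090958 (hg19), a gene of 100 bp. Its RNA is the best studied of the vault RNAs and is known to bind the autophagy receptor p62. In the RefSeq gene table of GRCh38.p14 the gene falls inside the span of the long noncoding RNA gene LOC105378198 and follows ZMAT2, which codes for a zinc finger protein. The pile-up at its highest position reached 40 in MDA-MB-231 library 1 and 16 in MDA-MB-231 library 2. It reached 8 in MDA-LM2 library 1 and 20 in MDA-LM2 library 2. Against the median height of its own list, the gene was above 27 in MDA-MB-231 library 1, just under 17 in MDA-MB-231 library 2, under 11 in MDA-LM2 library 1 and level with 20 in MDA-LM2 library 2.

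VTRNA1-1 held a different place within each list, although ranks in lists of unequal length show no change between libraries. The authors' strength score, whose definition no source used here gives, was 24.0 in MDA-MB-231 library 1, which ranked it 105th of 646. In MDA-MB-231 library 2 the score was 13.1, rank 12 of 18. In MDA-LM2 library 2 it was 13.6, rank 226 of 472, close to the list median of 13.4. In MDA-LM2 library 1 the score was 7.04, rank 84 of 86, with only 2 regions of that list scoring lower and the weakest of them at 6.95. The presence of VTRNA1-1 in all 4 lists therefore rests, in MDA-LM2 library 1, on a region near the lower end of its list by score. By height that region ranked 70th of 86. A second deposited number has the form of a log p-value, base unknown, with more negative values for stronger regions. It was -32.8 and -13.3 in MDA-MB-231 libraries 1 and 2, and -11.4 and -18.1 in MDA-LM2 libraries 1 and 2. The weakest finite value in the MDA-LM2 library 1 list was -10.2.

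The extent of the VTRNA1-1 region also differed between the lists. It ran from 140090498 to 140091227 in MDA-MB-231 library 1, 729 bp wide against a list median of 279 bp. In MDA-MB-231 library 2 it ran from 140090853 to 140091063, 210 bp. In MDA-LM2 library 1 it ran from 140090934 to 140091088, 154 bp, and covered 25% of the gene, all of it at the end with the higher coordinate. In MDA-LM2 library 2 it ran from 140090772 to 140091194, 422 bp. The other 3 regions covered the whole gene, and all 4 had 129 bp in common, from 140090934 to 140091063. Each region ended 105 to 269 bp past the higher end of the gene. At the lower end the regions were less alike, starting from 361 bp before the gene to 75 bp inside it.

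The highest position of the VTRNA1-1 region stayed close to the gene in each list. It was at 140090931 in MDA-MB-231 library 1 and 140090914 in MDA-LM2 library 2, both inside the gene, 72 and 55 bp past its lower end. It was at 140090971 in MDA-MB-231 library 2 and 140090959 in MDA-LM2 library 1, which is 13 and 1 bp beyond its higher end. Such distances may be off by 1 bp, since the files do not say from which number positions are counted. They also depend on the gene ends used, and the RefSeq table gives this gene 98 bp, not 100. The 4 positions spanned 57 bp, little more than 1 read of 50 nt. Of the 10 merged regions listed in all 4 libraries, this was the narrowest span. In the other 9, whose positions ran 72 to 842 bp apart, the median was 202 bp. At 842 bp, the merged region on chromosome 1 from 161499880 to 161501300 had been joined from 6 listed regions. There, and on chromosome 5 from 180633612 to 180634168, the strongest regions of the 4 lists had no base common to all. These spans describe regions selected for being listed everywhere and carry no test.

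**Figure D2:**
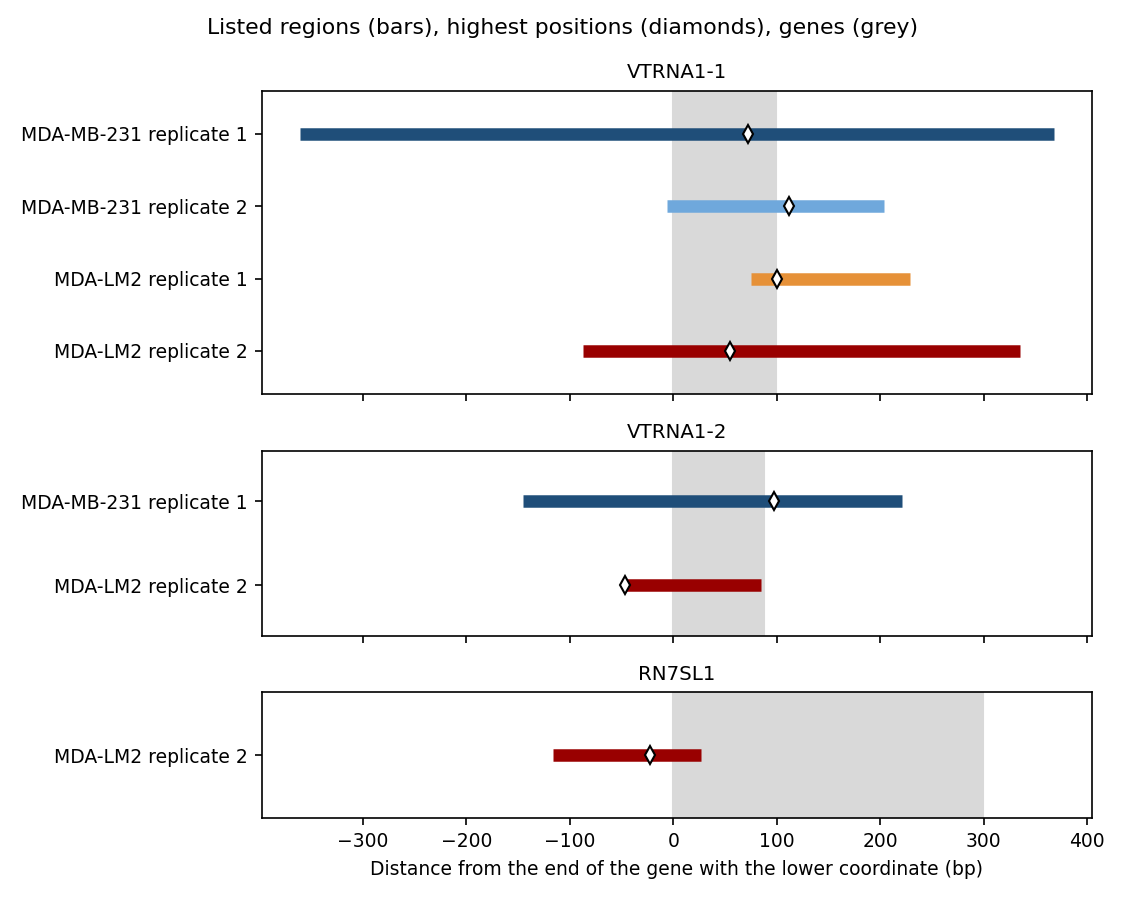
Extent of each listed region (coloured bars, 1 per library) and its highest position (diamonds) relative to the gene (grey), in bp from the gene end with the lower coordinate (x axis), for VTRNA1-1, VTRNA1-2 and RN7SL1. The 4 highest positions at VTRNA1-1 fall within 57 bp of one another, those at VTRNA1-2 lie 144 bp apart, and the RN7SL1 region overlaps only the lower end of its gene.

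Among the regions listed in all 4 libraries, VTRNA1-1 ranked 7th of 10 by score in MDA-MB-231 library 1 and 6th in MDA-MB-231 library 2. It ranked last, 10th, in MDA-LM2 library 1 and 9th in MDA-LM2 library 2. By height the ranks were 4, 6, 10 and 9 in the same order. Its place was thus lower in both MDA-LM2 lists than in both MDA-MB-231 lists, noticed after the values were seen in 1 gene over 2 libraries per line, where an exact permutation test cannot go below p = 0.333. The region most like it in score percentile over the 4 libraries was on chromosome 5 from 180633612 to 180634168, with a mean absolute difference of 21.1 percentile points. This merged region was a chain of overlaps with no base common to all 4 lists. Next came regions on chromosome 5 from 180615237 to 180616294 and on chromosome 14 from 23398624 to 23399201, at 21.2 and 21.9 points. The first of these 3 had heights of 33 and 13 in MDA-MB-231 libraries 1 and 2 and of 9 and 30 in MDA-LM2 libraries 1 and 2. No gene was assigned to these regions, and differences above 20 points show that none followed VTRNA1-1 closely.

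VTRNA1-2 lies on chromosome 5 from 140098510 to 140098598, 7.55 kb from VTRNA1-1, and like its neighbour falls within the span of LOC105378198 in the RefSeq table. In MDA-MB-231 library 1 its region ran from 140098365 to 140098731, covered the whole gene of 89 bp and reached a height of 27 with a score of 17.8, rank 278 of 646. In MDA-LM2 library 2 its region ran from 140098463 to 140098595, with a height and a score of 9, rank 446 of 472. It was not listed in MDA-MB-231 library 2 or MDA-LM2 library 1. Each line thus had 1 library with the gene and 1 without, and the libraries with it were those with the longest lists.

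The MDA-LM2 library 2 region at VTRNA1-2 stood at the edge of what that list holds. Its height of 9 is the lowest of the list, shared by 3 of 472 regions, and its log-like score was -10.2, where the weakest finite value of the list is -10.1. Its highest position was the first base of the region, 47 bp before the gene, which held for 23 of the 472 regions. In MDA-MB-231 library 1 the highest position was 9 bp beyond the opposite end of the gene. The positions in the 2 libraries were therefore 144 bp apart, on opposite sides of the gene.

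Where both genes were listed, VTRNA1-1 had the higher and wider region. In MDA-MB-231 library 1 the heights were 40 and 27, a ratio of 1.48, and the widths 729 and 366 bp. In MDA-LM2 library 2 the heights were 20 and 9, a ratio of 2.22, and the widths 422 and 132 bp. Height is read at a single position, so it needs no correction for gene length, and library depth cancels in a ratio within 1 library. VTRNA1-1 was thus the higher of the pair in both of these libraries, 1 of each line. Local background need not cancel in such a ratio, and the input libraries were not analysed. The ratio of 2.22 also rests on a height of 9, the lowest of its list. In the libraries without VTRNA1-2, the weakest listed height was 13 in MDA-MB-231 library 2 and 7 in MDA-LM2 library 1, where VTRNA1-1 had 16 and 8.

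VTRNA1-3, on chromosome 5 from 140105740 to 140105841 and the third gene of the same cluster, was not listed in any library. It lies 7.14 kb beyond VTRNA1-2. The nearest listed region was that of VTRNA1-2 in MDA-MB-231 library 1, 7.01 kb away, and in MDA-LM2 library 2, 7.15 kb away. In MDA-MB-231 library 2 and MDA-LM2 library 1 it was that of VTRNA1-1, at 14.7 kb in both. Within 1 Mb of the cluster, no list held a region other than those of VTRNA1-1 and VTRNA1-2. The order of the 3 clustered genes by number of libraries was thus VTRNA1-1 with 4, VTRNA1-2 with 2 and VTRNA1-3 with 0.

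VTRNA2-1 lies apart from the cluster, 4.67 Mb away on chromosome 5 from 135416188 to 135416286. The gene, also called nc886, gives a short RNA that binds the kinase PKR, and its promoter is known to be methylated on the maternal allele in many people. In the RefSeq table it lies between TGFBI and SMAD5-AS1. No library listed it, and no region of any list lay within 1 Mb. The nearest region was 1.15 Mb away in MDA-MB-231 library 1 and 1.16 Mb away in MDA-LM2 library 2. In MDA-MB-231 library 2 and MDA-LM2 library 1 the nearest was the VTRNA1-1 region itself.

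RN7SL1 lies on chromosome 14 from 50053297 to 50053596, a gene of 300 bp that falls within the span of RPS29, a ribosomal protein gene, in the RefSeq table. It was listed only in MDA-LM2 library 2, where 9 of the 472 regions were on chromosome 14. The region ran from 50053181 to 50053324, 143 bp wide, with a height of 15 against a list median of 20. Its score was 11.1, rank 350 of 472, and its log-like score was -13.0. The region scored above that of VTRNA1-2 and below that of VTRNA1-1 in the same list, where their heights were 9 and 20.

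The RN7SL1 region lay mostly outside the gene. It covered 28 bp of the gene, 9.33% of its length, and reached 116 bp beyond the lower end. The highest position, 50053274, was 23 bp outside the gene. The RefSeq table names 3 genes of 7SL RNA (RN7SL1, RN7SL2 and RN7SL3) and 684 pseudogenes with RN7SL symbols. The 7SL genes are near-identical copies, so a read of 50 nt from inside the gene can match several places, and no source used here says how such reads were treated. Signal within RN7SL1 and RN7SL2 is uncertain for that reason. The effect of such reads on the lists was not tested.

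RN7SL2, on chromosome 14 from 50329271 to 50329567, was not listed in any library. In MDA-LM2 library 2 the nearest region was that of RN7SL1, 276 kb away. In MDA-MB-231 library 1 it was 8.38 Mb away, and in MDA-MB-231 library 2 and MDA-LM2 library 1 it was 26.9 Mb away in both. RN7SL1 was likewise isolated in the lists without it, with the nearest region 8.65 Mb away in MDA-MB-231 library 1. RN7SL3 was not analysed here.

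The distance rule did not decide any listing. All 7 listed regions overlapped their gene, and the next nearest region to any gene was the one 7.01 kb from VTRNA1-3, so nothing lay just outside the 500 bp limit.

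The comparison of the lines asks whether more or fewer genes of these families were listed in the metastatic derivative. A count does not tell which genes were listed, and listing is a threshold call, not a measure of polymerase. MDA-MB-231 libraries 1 and 2 listed 2 and 1 of the 6 genes, and MDA-LM2 libraries 1 and 2 listed 1 and 3. For the 788 merged regions, the share listed was 78.7% and 2.28% in MDA-MB-231 libraries 1 and 2, and 9.64% and 55.1% in MDA-LM2 libraries 1 and 2. The members' counts were lower in the short lists. The share of all merged regions follows list length by construction, so it does not tell why the counts differed, which was not tested. The lines overlapped, at 1.5 ± 0.71 genes in MDA-MB-231 and 2 ± 1.41 in MDA-LM2 (SD, n = 2 each). The difference of 0.5 genes was smaller than the spread between replicates (exact two-sided permutation p = 1, smallest possible 0.333). Without MDA-LM2 library 2 it was -0.5, without MDA-MB-231 library 2 it was 0, and without MDA-LM2 library 1 or MDA-MB-231 library 1 it was 1.5 or 1.

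For the vault RNA genes alone, the counts were 2 and 1 in MDA-MB-231 and 1 and 2 in MDA-LM2, a difference of 0 (exact permutation p = 1, n = 2 each). It was -0.5 without library 2 of either line and 0.5 without library 1 of either line. For the 7SL genes they were 0 and 0 against 0 and 1, a difference of 0.5 (exact permutation p = 1, n = 2 each) that rested on the single RN7SL1 region of MDA-LM2 library 2 and was 0 without that library. A p of 1 with 2 libraries a line does not show that the lines are alike. Within the pairs of replicates of one line, 1 gene was listed in 1 MDA-MB-231 library only, VTRNA1-2, and 2 genes in 1 MDA-LM2 library only, VTRNA1-2 and RN7SL1. Such disagreement was common in the lists and is no trait of these genes. Of the 788 merged regions, MDA-MB-231 libraries 1 and 2 listed 78.7% and 2.28%, and MDA-LM2 libraries 1 and 2 listed 9.64% and 55.1%. In each line, most merged regions that were listed were therefore in 1 library only.

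How often regions as strong as the members were found in the other lists gives these listings a scale. For this, the regions within 5 percentile points of a member's score in its own list were counted. Around VTRNA1-1 in MDA-MB-231 library 1 there were 64 such regions, of which 5 were found in MDA-MB-231 library 2, 12 in MDA-LM2 library 1 and 44 in MDA-LM2 library 2. VTRNA1-1 was found in each of these lists. Around VTRNA1-2 in the same list there were again 64, of which 29 were found in MDA-LM2 library 2, as VTRNA1-2 was. In MDA-LM2 library 1, 8 of those 64 were found, and in MDA-MB-231 library 2 none, and VTRNA1-2 was in neither. Around RN7SL1 in MDA-LM2 library 2 there were 46, of which 31 were found in MDA-MB-231 library 1, 1 in MDA-MB-231 library 2 and 4 in MDA-LM2 library 1. RN7SL1 was in none of these lists. Around VTRNA1-1 in MDA-LM2 library 2 there were 46. Of these, 33 were found in MDA-MB-231 library 1, 0 in MDA-MB-231 library 2 and 7 in MDA-LM2 library 1. Around VTRNA1-1 in MDA-LM2 library 1 there were 6. MDA-MB-231 libraries 1 and 2 held 4 and 0 of them, and MDA-LM2 library 2 held 3. Around VTRNA1-2 in MDA-LM2 library 2 there were 46. MDA-MB-231 library 1 held 31 of them, and MDA-MB-231 library 2 and MDA-LM2 library 1 held 0. These counts describe the lists and carry no test, since regions are not replicates and many lie in clusters.

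**Figure D3:**
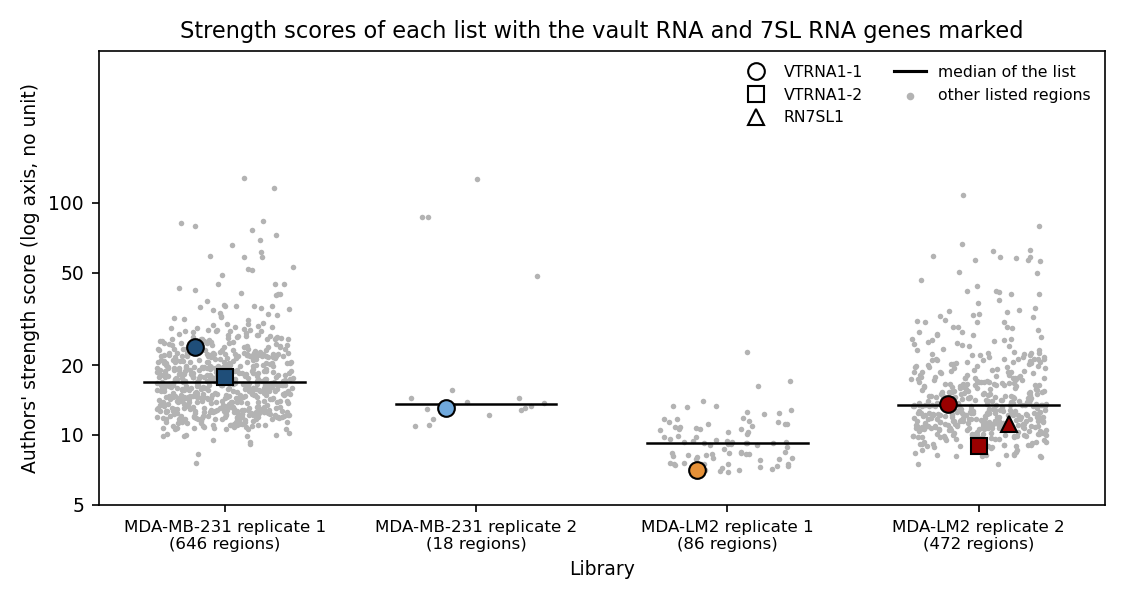
Authors' strength score (y axis, log scale, no unit) of every region in the 4 lists (grey points, spread sideways at random), with the list median (line) and the regions at VTRNA1-1 (circles), VTRNA1-2 (squares) and RN7SL1 (triangle). Scores rank regions within a list only: VTRNA1-1 lies above the median of MDA-MB-231 library 1 (24.0 against 16.9) and near the bottom of MDA-LM2 library 1 (7.04 against 9.22).

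Lists of regions give no value for a gene that is not listed. For VTRNA1-3, VTRNA2-1 and RN7SL2, and for VTRNA1-2 and RN7SL1 where they are missing, the lists show that no region passed the authors' threshold, whose value no source used here states. The lowest height that any listed region had was 10 in MDA-MB-231 library 1, 13 in MDA-MB-231 library 2, 7 in MDA-LM2 library 1 and 9 in MDA-LM2 library 2. Occupancy that gives lower pile-ups was not seen in these lists. The weakest finite log-like score was -10.01 and -11.5 in MDA-MB-231 libraries 1 and 2, and -10.2 and -10.1 in MDA-LM2 libraries 1 and 2. The lowest height is not known to be the threshold, which may lie on another deposited number such as the log-like score. A missing gene may therefore also have had a pile-up above that height. With depth unknown as well, the missing genes cannot be called free of polymerase.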

How the data were processed

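Processed region lists of the 4 POLR3A ChIP libraries were used, 1 list per library. The submitters' processing notes name the build hg19 and the tools DESeq, bedtools and Bowtie2 2.2, without saying what each did. These sources do not name the region caller, its threshold or the use of input. Column meanings were read from the values, since the 11 columns carry no header. As deposited by the authors, they hold a strength score, a score like the logarithm of a p-value, the signal (pile-up height) at the highest position, and that position as a percent of the region. Per the labels' protocols, fragments were 200 to 1000 bp and reads 50 nt. Depth per library is unknown.

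The 6 genes, their hg19 positions and the 500 bp limit were chosen with earlier results of these data known. All 6 genes were named, and for any listed in at least 3 libraries, up to 3 regions with the same listing and the nearest score percentiles. Percentiles and ranks were taken within a list. Regions sharing at least 1 bp were merged, so the lists behind a merged region need not all share a base. An exact two-sided permutation test over libraries compared the counts of listed genes, in Python 3.11.15. The scripts were tested on simulated data. The RefSeq table of GRCh38.p14, in which 6 of 6 genes matched by symbol, served for names and neighbours only. The hg19 gene positions come with the choice of genes, not from the files. The spacing of their starts within the VTRNA1 cluster and between the 7SL genes was that of the table to within 3 bp. Gene lengths differed from the table, at 102 bp against 88 for VTRNA1-3 and 99 against 108 for VTRNA2-1. For the listed genes they were 100 against 98 (VTRNA1-1), 89 against 88 (VTRNA1-2) and 300 against 299 (RN7SL1). The heights, widths and bands of like strength were described after the data had been seen.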

Additional observations from a re-analysis of the deposited data

How the results depend on the processing

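Requiring overlap with the gene, widening the limit to 2000 bp, or requiring the highest position within 500 bp left the same 7 listings and all 3 differences as they were. With only the regions above the median score of each list, 3 listings were kept (VTRNA1-1 in MDA-MB-231 library 1 and MDA-LM2 library 2, VTRNA1-2 in MDA-MB-231 library 1). The difference, MDA-LM2 minus MDA-MB-231, was then -0.5 genes for all members, -0.5 for vault RNA genes and 0 for 7SL genes. With the strongest 18 regions of each list by score, and by height (an alternative added after seeing the data), 1 listing was kept, VTRNA1-1 in MDA-MB-231 library 2, where 18 is the whole list. The differences were again -0.5, -0.5 and 0. Leaving out 1 library gave -0.5 to 1.5 for all members, -0.5 to 0.5 for vault RNA genes and 0 to 1 for 7SL genes. No setting could give a permutation p below 0.333, the smallest the design allows, so the p-values do not tell whether the differences are robust. The replicate block left the differences at 0.5, 0 and 0.5 (exact permutation p = 1, smallest possible 0.5). Nothing in the labels pairs the numbers, and the lists cannot settle it. Over the 788 merged regions, the deviations of same-numbered libraries correlated at 0.36, but at -0.42 without centring over regions. Both values depend on the unequal list lengths and on every merged region being in at least 1 list, so neither bears on pairing. Depth limits all of this: it is unknown, and a short list may be a shallow one, which was not tested.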
